A study of Mus musculus with 2 samples.

Results

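The 10 genes described here encode proteins of the basement membrane, the thin sheet of extracellular matrix on which epithelial and endothelial cells sit. They were listed by name, with earlier results of these data known: the laminin chains Lama1, Lama4, Lama5, Lamb1 and Lamc1, the collagen IV chains Col4a1 and Col4a2, the linker nidogen (Nid1), the proteoglycan perlecan (Hspg2) and the collagen-binding glycoprotein Sparc. These are 10 of 30970 gene rows, and each was matched to its row by symbol and Ensembl identifier. The cells came from mouse yolk sacs at stage E8.75, dissociated, marked with CellPlex oligonucleotide tags, pooled and sequenced as single cells on the 10x platform. There were 3 tagged samples, called tagged sample 1, 2 and 3 here, from 3 yolk sacs of 3 embryos, per the series' design text. All 3 carried the same genotype, Ttr-Cre/+; R26lsl-rtTA-EGFP/+, in which a Cre named for the endodermal gene Ttr accompanies a conditional rtTA and EGFP allele, so there was no untreated or wild-type group. The comparisons are therefore between cell classes within these yolk sacs. The study set out to compare ciliated and unciliated cell types, and these genes were not named in its design text.

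Laminins are trimers of an alpha, a beta and a gamma chain, and the alpha chain sets most of their receptor binding. Collagen IV chains are folded and hydroxylated in the endoplasmic reticulum, secreted as trimers and joined into a network, which nidogen and perlecan tie to the laminin sheet. SPARC binds collagen IV outside the cell and is known in flies for a part in its deposition. In the yolk sac, visceral endoderm, mesoderm and the endothelium of the blood islands lie against such sheets. Parietal endoderm, the other extraembryonic endoderm, is known for building Reichert's membrane, a very thick basement membrane outside the yolk sac.

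Of 1817 deposited cell barcodes, 1740 had at least 500 genes and at most 10% mitochondrial molecules. Molecules are counted as unique molecular identifiers (UMIs), and the 3 tagged samples held between 22007477 and 33114758 of them. No barcode occurred in more than 1 tagged sample. Cells were placed in classes by their share of UMIs from gate genes, none of which is a gene described here except Lama1 in the last gate. Endoderm (557 cells) had at least 0.3% from Ttr, Apob and Apom. Erythroid cells (629) had at least 3% from 7 globin genes, endothelium (115) at least 0.04% from Cdh5, Ctla2a and Plvap, and mesoderm (197) at least 0.03% from Hand1, Vcan and Foxf1. Parietal endoderm-like cells (25) had at least 10 UMIs of Fst and Srgn and at least 5 of Lama1, and were set apart. The other 50 cells with the marks of more than 1 class and 167 with those of none were left out. Markers that the gates do not use followed the labels: 10 visceral endoderm markers summed to between 18594 and 24960 CPM (UMIs of the gene per 1e6 UMIs of the class) in endoderm and to at most 608 in the other 3 main classes. On that scale 8 erythroid markers summed to between 1211 and 1595 in erythroid cells and to at most 131 in the other 3, and 10 endothelial markers to between 1730 and 1777 in endothelium and to at most 170.0 in the other 3. The 10 markers of extraembryonic mesoderm summed to between 547 and 873 CPM in mesoderm and to at most 125 in the other 3. Macrophage markers, of which 4 of 5 were detected and C1qb was at 0, summed to between 83.1 and 146 CPM in endothelium and to at most 5.15 in the other 3. Megakaryocyte and progenitor markers, 4 of 7 detected in endothelium, summed to between 46.3 and 93.6 CPM there and to at most 25.0 in the other 3. The part of such cells in the endothelial levels was not tested. Median UMIs per cell were 56338 in endoderm, 47771 in erythroid cells, 35699 in endothelium and 34944 in mesoderm.

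The promoter windows are shown for the pair of collagen IV genes because their starts adjoin on opposite strands, for Sparc because its level followed theirs most closely, and for Hspg2 as a contrast. Each window runs from 250 bases before to 50 bases after the RefSeq start on GRCm38.p6 and is written 5′ to 3′ on the gene's strand. A window was found for 7 of the 10 genes: Lama5, Lamb1, Col4a1, Col4a2, Nid1, Hspg2 and Sparc. Capitals mark a GC box, GGGCGG, or a CCAAT box, CCAAT, on either strand, so that the reverse strand reads CCGCCC or ATTGG.
Col4a1, chr8:11312777-11313076, minus strand: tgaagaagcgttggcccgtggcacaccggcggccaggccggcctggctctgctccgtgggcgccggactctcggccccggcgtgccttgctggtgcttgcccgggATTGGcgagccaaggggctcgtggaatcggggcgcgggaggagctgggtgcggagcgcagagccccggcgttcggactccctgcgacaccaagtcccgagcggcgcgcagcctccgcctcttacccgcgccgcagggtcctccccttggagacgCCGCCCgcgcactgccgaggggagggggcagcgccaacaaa
Col4a2, chr8:11312555-11312854, plus strand: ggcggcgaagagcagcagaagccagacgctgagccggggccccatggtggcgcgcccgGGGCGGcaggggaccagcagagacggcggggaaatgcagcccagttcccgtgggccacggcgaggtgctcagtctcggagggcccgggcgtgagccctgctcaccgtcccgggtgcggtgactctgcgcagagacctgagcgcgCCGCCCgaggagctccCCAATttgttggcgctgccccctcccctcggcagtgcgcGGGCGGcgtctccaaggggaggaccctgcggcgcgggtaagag
Sparc, chr11:55420031-55420330, minus strand: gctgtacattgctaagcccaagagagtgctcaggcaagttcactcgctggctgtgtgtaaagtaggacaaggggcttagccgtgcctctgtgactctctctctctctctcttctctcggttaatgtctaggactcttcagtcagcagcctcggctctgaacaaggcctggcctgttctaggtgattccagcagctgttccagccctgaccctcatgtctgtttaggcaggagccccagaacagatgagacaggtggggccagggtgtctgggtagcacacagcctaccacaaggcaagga
Hspg2, chr4:137468553-137468852, plus strand: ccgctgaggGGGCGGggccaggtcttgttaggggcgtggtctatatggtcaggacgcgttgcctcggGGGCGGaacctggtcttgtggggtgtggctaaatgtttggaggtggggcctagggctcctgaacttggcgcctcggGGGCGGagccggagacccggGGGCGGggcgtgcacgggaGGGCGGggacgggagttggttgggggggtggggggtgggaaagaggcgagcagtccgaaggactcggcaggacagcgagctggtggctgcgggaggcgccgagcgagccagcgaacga

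Col4a1 (chromosome 8, 11198423 to 11312826, minus strand) and Col4a2 (11312805 to 11449287, plus strand) are transcribed in opposite directions from starts 21 bases apart, in RefSeq and in GENCODE M21 alike, and their first bases overlap. Their windows share the 78 bases from 11312777 to 11312854, so matches in that stretch count for both genes. The Col4a1 window held 1 GC box and 1 CCAAT box, and the Col4a2 window 3 GC boxes and 1 CCAAT box. The Hspg2 window held 5 GC boxes and the Lama5 window 4, while the Lamb1 window held 2 and the Nid1 window 1. The Sparc window held none of these letters and had 55.3% G and C, against 74.0% for Col4a1 and 73.7% for Col4a2. That Sparc window begins at a RefSeq start 3103 bases from the outermost GENCODE start, so it may not be the start in use in these cells. Over all 32851 mouse windows of this length, 35.7% held at least 1 GC box, 5.49% held at least 4 and 37.4% held a CCAAT box. The letters TATAAA, found in 13.6% of all windows, were in none of the 7.

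Each class carried its own mixture of the 10 genes. Endothelium had the highest levels of Col4a1, Col4a2, Nid1, Hspg2 and Sparc, mesoderm had the highest mean levels of all 5 laminin chains, and erythroid cells had the lowest mean level of every gene. For Lama1 and Lama5, mesoderm overlapped endoderm and the difference between them was not called. UMIs were summed per tagged sample and class, and levels are CPM within that class. Differences were tested with edgeR's quasi-likelihood test over all genes, with 3 sums in each class, an adjusted p under 0.05 as the threshold, and log2 differences on the scale of edgeR's normalization. Levels are compared here between classes for a given gene, and not between genes, since they are not per length.

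**Figure D1:**
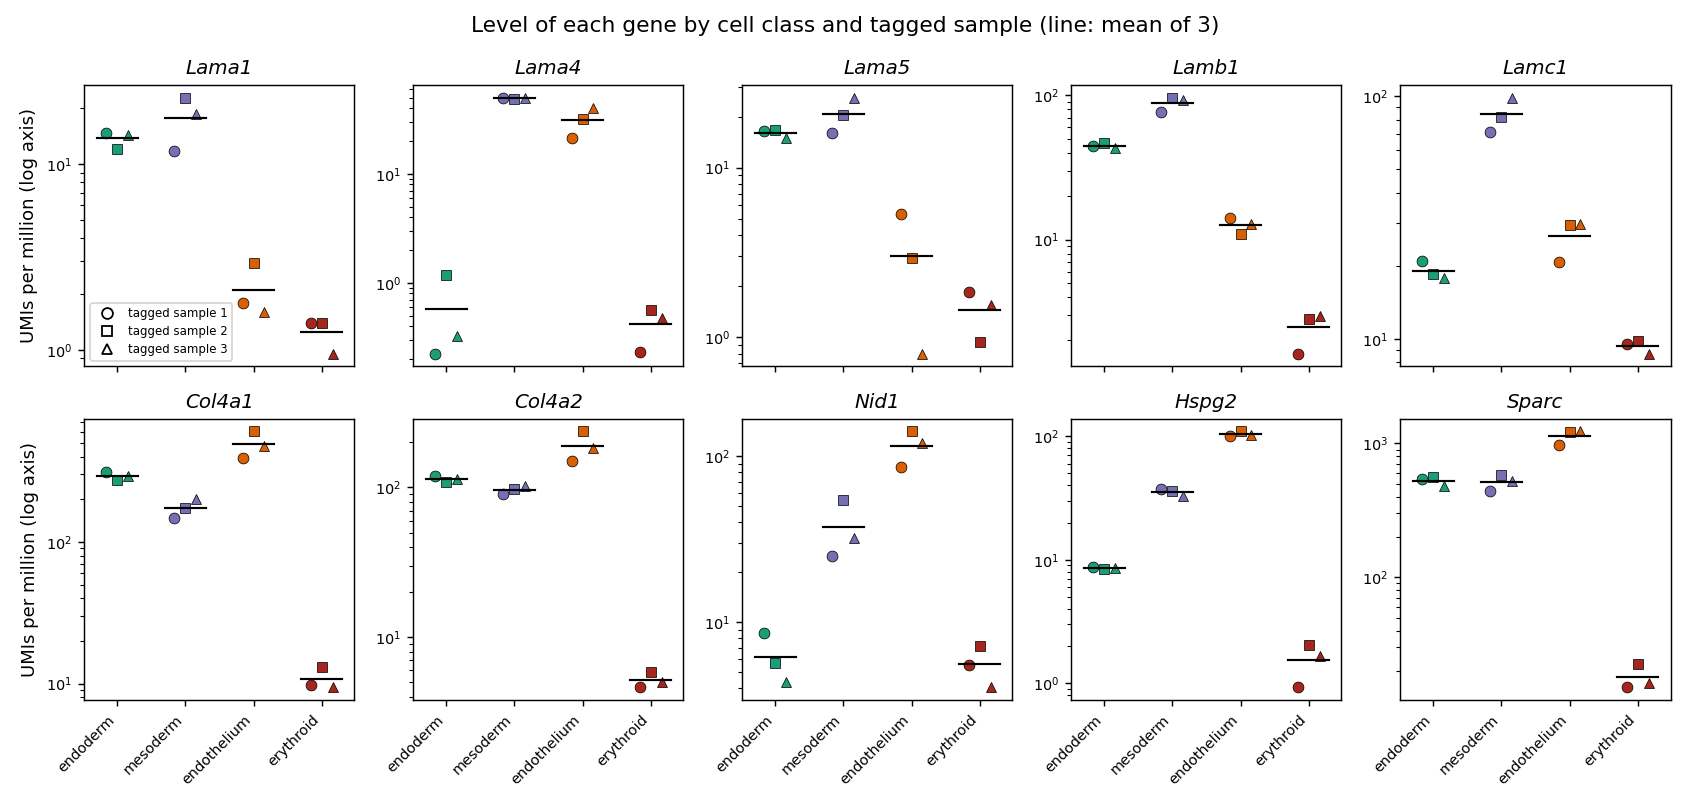
Level of each gene in CPM (log axis, a separate range for each gene) in endoderm, mesoderm, endothelium and erythroid cells. Each point is 1 tagged sample and each line the mean of 3; the collagen IV genes and Sparc peak in endothelium, while Lama4 is near the bottom of its axis in endoderm and erythroid cells.

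Col4a1 and Col4a2, the chains of the widely expressed form of collagen IV, were highest in endothelium, next in endoderm, then in mesoderm. Col4a1 was at 389, 603 and 473 CPM in the endothelium of tagged samples 1, 2 and 3, at 314, 275 and 293 CPM in endoderm, and at 146, 173 and 199.7 CPM in mesoderm. These 3 classes did not overlap in Col4a1. Mean endothelial Col4a1 was 1.66 times that of endoderm, a log2 difference of 0.60 ± 0.12 (SE; adjusted p = 0.000811). Endothelial Col4a1 exceeded the mesodermal level by 1.61 ± 0.15 on the log2 scale (adjusted p = 2.12e-06), and mesoderm minus endoderm was -1.001 ± 0.10 (adjusted p = 2.77e-06).

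Col4a2 was at 149.6, 237 and 185 CPM in endothelium, 119, 108 and 114 CPM in endoderm, and 90.1, 97.3 and 103 CPM in mesoderm. The order was that of Col4a1, again without overlap, but the step from endoderm to mesoderm was smaller. The log2 difference of Col4a2 was 0.61 ± 0.13 for endothelium over endoderm (adjusted p = 0.00124), 1.09 ± 0.15 for endothelium over mesoderm (adjusted p = 6.72e-05) and -0.47 ± 0.08 for mesoderm minus endoderm (adjusted p = 0.000332). The calls that involve mesoderm rested on how 2 cells were treated: 2 of the 25 parietal endoderm-like cells, both of tagged sample 2, also passed the mesoderm gate. With the parietal endoderm-like cells left in their other classes, the mesoderm minus endoderm difference was -0.25 for Col4a1 (adjusted p = 0.546) and 0.10 for Col4a2 (adjusted p = 0.769), and neither passed for endothelium over mesoderm (0.85, adjusted p = 0.0856, and 0.51, adjusted p = 0.214). Col4a2 also missed the threshold for mesoderm minus endoderm with the gate shares doubled (-0.12, adjusted p = 0.201) and without cells holding at least 5 UMIs of trophoblast markers (-0.19, adjusted p = 0.051). Over all alternatives its adjusted p for that difference ran from 8.18e-07 to 0.769, and that of Col4a1 from 2.74e-28 to 0.546.

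Sparc, the collagen-binding glycoprotein, followed the collagen IV genes in endothelium. It was at 968, 1216 and 1229 CPM there, at 540.1, 557 and 484 CPM in endoderm and at 438, 579 and 527 CPM in mesoderm. Endothelium lay above both other classes in every tagged sample, while endoderm and mesoderm overlapped. Endothelial Sparc was 0.98 ± 0.09 higher than in endoderm (log2; adjusted p = 1.31e-06) and 1.26 ± 0.11 higher than in mesoderm (adjusted p = 1.71e-06). Mesoderm minus endoderm was -0.27 ± 0.10 (adjusted p = 0.0303). That difference missed the threshold under 9 alternatives, among them the fit without tagged sample 1 (-0.16, adjusted p = 0.133), the fit without tagged sample 3 (-0.34, adjusted p = 0.0554) and scaling by library size alone (-0.03, adjusted p = 0.786), and its adjusted p ran from 9.83e-05 to 0.813.

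Lama4, the alpha chain of endothelial and mesenchymal laminins, was at 21.4, 31.6 and 39.999 CPM in endothelium and at 50.03, 48.4 and 50.03 CPM in mesoderm. In endoderm it was at 0.224, 1.18 and 0.328 CPM, from 22 UMIs in 557 cells, of which 12 were in 5 cells. The log2 difference from endoderm was 5.93 ± 0.30 for mesoderm (adjusted p = 1.68e-08) and 5.35 ± 0.42 for endothelium (adjusted p = 1.72e-07). These sizes depended on tagged sample 2, which held 17 of the 22 endodermal UMIs: without it they were 7.17 and 6.57. With called doublets removed they were 7.41 and 6.85, and with cells of more than 1 class kept 5.20 and 4.66. Lama4 was lower in endothelium than in mesoderm, with a log2 difference of -0.58 ± 0.20 (adjusted p = 0.0359), with no overlap. That call was lost under 6 alternatives, including without tagged sample 1 (-0.35, adjusted p = 0.187) and without tagged sample 2 (-0.61, adjusted p = 0.137), and its adjusted p ran from 0.0018 to 0.187.

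Lama1, the alpha chain of the early embryonic laminin, was low in endothelium, where Lama4 was not. It was at 14.8, 12.1 and 14.4 CPM in endoderm, 11.8, 22.8 and 18.7 CPM in mesoderm and 1.78, 2.94 and 1.60 CPM in endothelium, the last from 9 UMIs in 115 cells. Endoderm and mesoderm overlapped, and endothelium lay below both. Lama1 in endothelium fell by 2.82 ± 0.32 (log2) against endoderm (adjusted p = 6.18e-06), and endothelium minus mesoderm was -2.93 ± 0.42 (adjusted p = 0.000113). Mesoderm minus endoderm was 0.15 ± 0.20 (adjusted p = 0.548). Its sign changed under 3 alternatives, and with the gate shares doubled it was 0.58 (adjusted p = 0.0257), so no direction is given. Lama1 also helped choose the cells set apart: with them left in their other classes, mesoderm minus endoderm was 1.03, which missed the threshold, and endothelium minus mesoderm -3.88, which passed it.

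Lama5, the alpha chain of most epithelial basement membranes, was at 16.5, 16.8 and 14.9 CPM in endoderm, 15.9, 20.4 and 25.9 CPM in mesoderm and 5.34, 2.94 and 0.800 CPM in endothelium (14 UMIs). Endothelium was the lowest of the 3 classes in every tagged sample. The endothelial level fell by 2.43 ± 0.34 (log2) against endoderm (adjusted p = 4.21e-05), and endothelium minus mesoderm was -2.54 ± 0.41 (adjusted p = 0.000286). Without tagged sample 1, which held 9 of the 14 endothelial UMIs, these differences were -3.18 and -3.43. Mesoderm minus endoderm was 0.13 ± 0.17 (adjusted p = 0.530) and changed sign without tagged sample 3.

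The partner chains went separate ways. Lamb1, the common beta chain, was at 76.4, 96.5 and 92.8 CPM in mesoderm, 44.7, 47.2 and 43.1 CPM in endoderm and 14.2, 11.03 and 12.8 CPM in endothelium. None of the 3 classes overlapped. Mesodermal Lamb1 was 0.74 ± 0.11 higher than in endoderm (log2; adjusted p = 9.29e-05), and endothelial Lamb1 fell by 1.94 ± 0.17 against endoderm (adjusted p = 5.78e-07), and endothelium minus mesoderm was -2.67 ± 0.18 (adjusted p = 1.57e-07).

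Lamc1, the common gamma chain, was at 71.4, 82.2 and 98.4 CPM in mesoderm, 20.9, 18.5 and 17.8 CPM in endoderm and 20.8, 29.4 and 29.6 CPM in endothelium. Mesoderm stood above the other classes, while endothelium and endoderm overlapped. Mesodermal Lamc1 was 1.90 ± 0.13 higher than in endoderm (log2; adjusted p = 1.27e-07), and endothelium minus mesoderm was -1.55 ± 0.18 (adjusted p = 1.95e-05). Endothelium minus endoderm was 0.34 ± 0.17 (adjusted p = 0.110). It passed under 3 alternatives, among them without tagged sample 1 (0.56, adjusted p = 0.0202), and its adjusted p ran from 0.0159 to 0.833.

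Nidogen and perlecan, which join the laminin and collagen sheets, ranked endothelium first, mesoderm next and endoderm after that. Nid1 was at 86.7, 141 and 120.0 CPM in endothelium, 25.0, 54.6 and 32.2 CPM in mesoderm and 8.62, 5.64 and 4.37 CPM in endoderm. Hspg2 was at 99.7, 109.6 and 103 CPM in endothelium, 37.7, 35.8 and 32.6 CPM in mesoderm and 8.73, 8.42 and 8.63 CPM in endoderm. For both genes the 3 classes were separate in every tagged sample, and Hspg2 had the tighter replicates. Endothelium exceeded endoderm by 4.10 ± 0.22 (log2) for Nid1 (adjusted p = 5.4e-09) and by 3.47 ± 0.13 for Hspg2 (adjusted p = 1.53e-10). It exceeded mesoderm by 1.74 ± 0.25 for Nid1 (adjusted p = 0.000119) and by 1.67 ± 0.13 for Hspg2 (adjusted p = 5.1e-07). Mesoderm exceeded endoderm by 2.37 ± 0.29 for Nid1 (adjusted p = 2.19e-05) and by 1.80 ± 0.14 for Hspg2 (adjusted p = 4.95e-07).

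**Figure D2:**
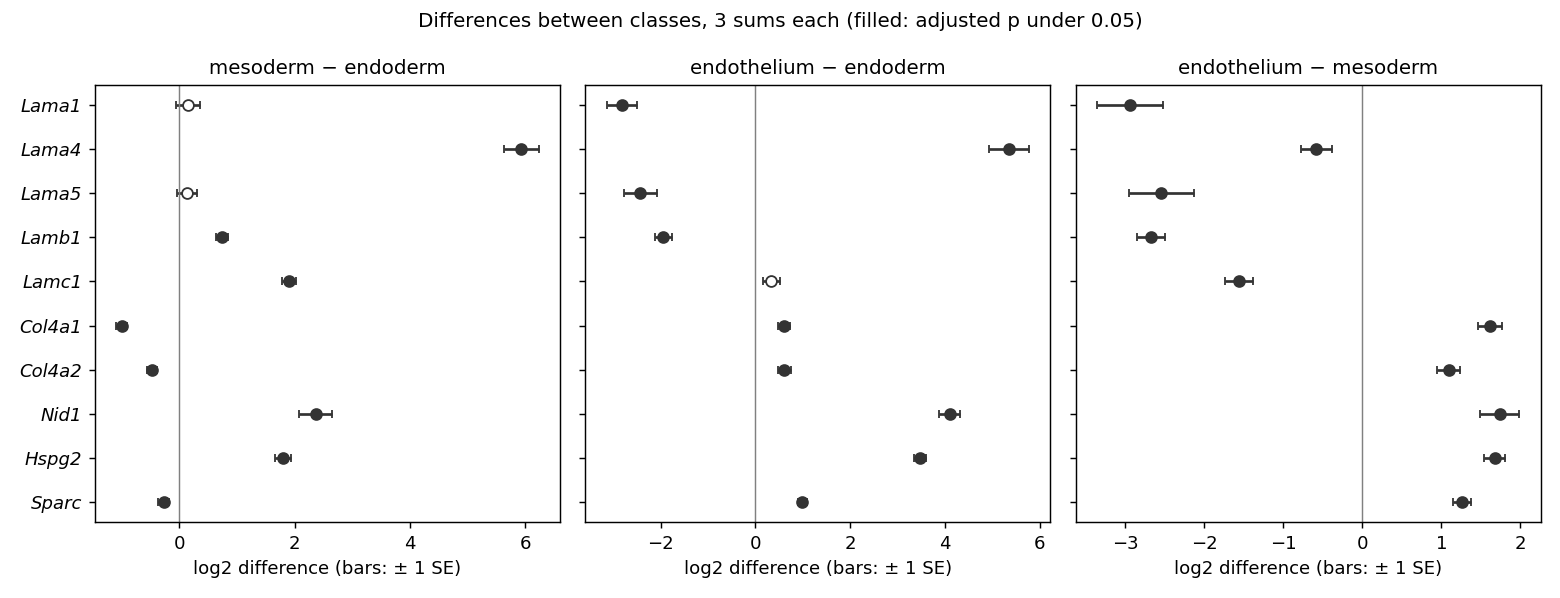
Log2 difference of each gene between mesoderm and endoderm, endothelium and endoderm, and endothelium and mesoderm, with bars of 1 SE (3 sums per class); filled points have an adjusted p under 0.05. In the right panel the 5 laminin chains lie below 0 and the 5 other genes above it.

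In counts, mesoderm exceeded endoderm in 5 of the 10 genes and fell below it in 3, with 2 not called. Over all 10976 genes tested in that comparison 63.8% were called, 30.7% higher in mesoderm and 33.1% higher in endoderm. Endothelium exceeded endoderm in 6 and fell below it in 3, with 1 not called, where 60.4% of all 10688 genes were called, 28.6% higher in endothelium and 31.9% higher in endoderm. Endothelium exceeded mesoderm in 5 genes, which were Col4a1, Col4a2, Nid1, Hspg2 and Sparc, and fell below it in the 5 laminin chains, where 35.7% of all 9105 genes were called, 19.7% higher in endothelium and 16.1% higher in mesoderm. The median log2 difference over the 10 genes was 0.44, 0.61 and 0.26 in these comparisons, against -0.02, -0.05 and -0.01 over all genes tested. Lama4, with 22 endodermal UMIs, passed the filter against endoderm only through the other class. Lama1 and Lama5, with 9 and 14 endothelial UMIs, passed it against endothelium only through the other class. The filter favoured the direction called for these. The comparisons share class sums, so their calls are not independent of each other.

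Erythroid cells, which build no basement membrane, had low counts of each gene. Col4a1 was at 9.73, 13.1 and 9.41 CPM there, Col4a2 at 4.63, 5.88 and 5.06 CPM, and Sparc at 15.1, 22.6 and 16.1 CPM. Against endoderm, erythroid cells were lower in 8 of the 9 genes tested, by log2 differences from -4.64 (Sparc) to -0.83 (Lamc1), where 77.9% of all genes were called, 36.1% higher in erythroid cells and 41.8% higher in endoderm. Lama4 was not tested there, being too low in both classes. Nid1 was at 5.56, 7.19 and 4.05 CPM in erythroid cells, overlapping endoderm, with a log2 difference of 0.05 ± 0.27 (adjusted p = 0.875). Lamc1 was at 9.50, 9.80 and 8.70 CPM in erythroid cells, below endoderm, with a log2 difference of -0.83 ± 0.12 (adjusted p = 5.3e-05). Mesoderm exceeded erythroid cells in 10 of 10 genes, where 70.7% of all genes were called, 37.4% higher in mesoderm and 33.3% higher in erythroid cells. Endothelium did so in 8 of 8 tested, where 66% of all genes were called, 34.2% higher in endothelium and 31.9% higher in erythroid cells. Lama1 and Lama5 were too low to test there. Lama4, with 15 erythroid UMIs, passed the filter only through endothelium, and against mesoderm Lama1, Lama4 and Lama5 passed only through mesoderm. The filter favoured that direction, so 8 of 8 and 10 of 10 are partly set in advance. In the sum of erythroid Sparc UMIs, 5 cells of 629 held 30.2%, and in that of Col4a1 5 cells held 19.4%, against 3.0% and 3.48% for the 5 highest of 557 endoderm cells. The part of free RNA or mixed cells in the erythroid counts was not tested.

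The make-up of the laminin alpha chains is given as a description. As a share of Lama1, Lama4 and Lama5 UMIs, endoderm held 45.3% ± 4.5 Lama1, 52.8% ± 2.8 Lama5 and 1.9% ± 1.8 Lama4 (SD, n = 3 tagged samples). Mesoderm held 56.7% ± 6.6 Lama4, 23.3% ± 3.6 Lama5 and 19.9% ± 4.8 Lama1. Endothelium held 84.6% ± 9.7 Lama4, 9.5% ± 8.6 Lama5 and 6.0% ± 2.1 Lama1, from 152 UMIs in all. Lama4 was the largest share in the mesoderm and endothelium of every tagged sample and the smallest in the endoderm of each. The endodermal Lama4 share was 0.68% with called doublets removed and 3.33% with cells of more than 1 class kept, and tagged sample 2 alone was at 3.94%, against 0.712% and 1.11% in the others. With the 2 parietal endoderm-like cells that passed both gates counted as mesoderm, the Lama1 share of mesoderm was 28.5%. Lama2 and Lama3, the other alpha chains, had at most 2 UMIs in any of the 4 classes. These are shares of UMIs, and the part of differences in capture between the 3 transcripts was not tested.

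The ratio of the paired chains also varied. Col4a1 UMIs over Col4a2 UMIs was 2.64, 2.54 and 2.57 in endoderm and 2.60, 2.55 and 2.56 in endothelium, which overlapped. It was 1.63, 1.78 and 1.95 in mesoderm, below both in every tagged sample. The exact permutation test over tagged samples gave p = 0.1 for mesoderm against endoderm and against endothelium (two-sided; 0.12 after Benjamini-Hochberg adjustment over 12 tests), which is the smallest p that 3 against 3 allows, so these ratios cannot pass the threshold. Counting the 2 parietal endoderm-like cells as mesoderm gave a mesodermal mean of 1.94. The erythroid ratio averaged 2.06 and was 2.99 with the gate shares doubled, so no order is read from it. Lamb1 UMIs over Lamc1 UMIs was 2.13, 2.55 and 2.42 in endoderm, 1.07, 1.17 and 0.944 in mesoderm, 0.686, 0.375 and 0.432 in endothelium and 0.171, 0.286 and 0.342 in erythroid cells. These 4 classes did not overlap, and each of the 6 pairs had an exact permutation p of 0.1, again the smallest possible. With cells of more than 1 class kept, the erythroid mean moved from 0.266 to 0.420, within the endothelial range.

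**Figure D3:**
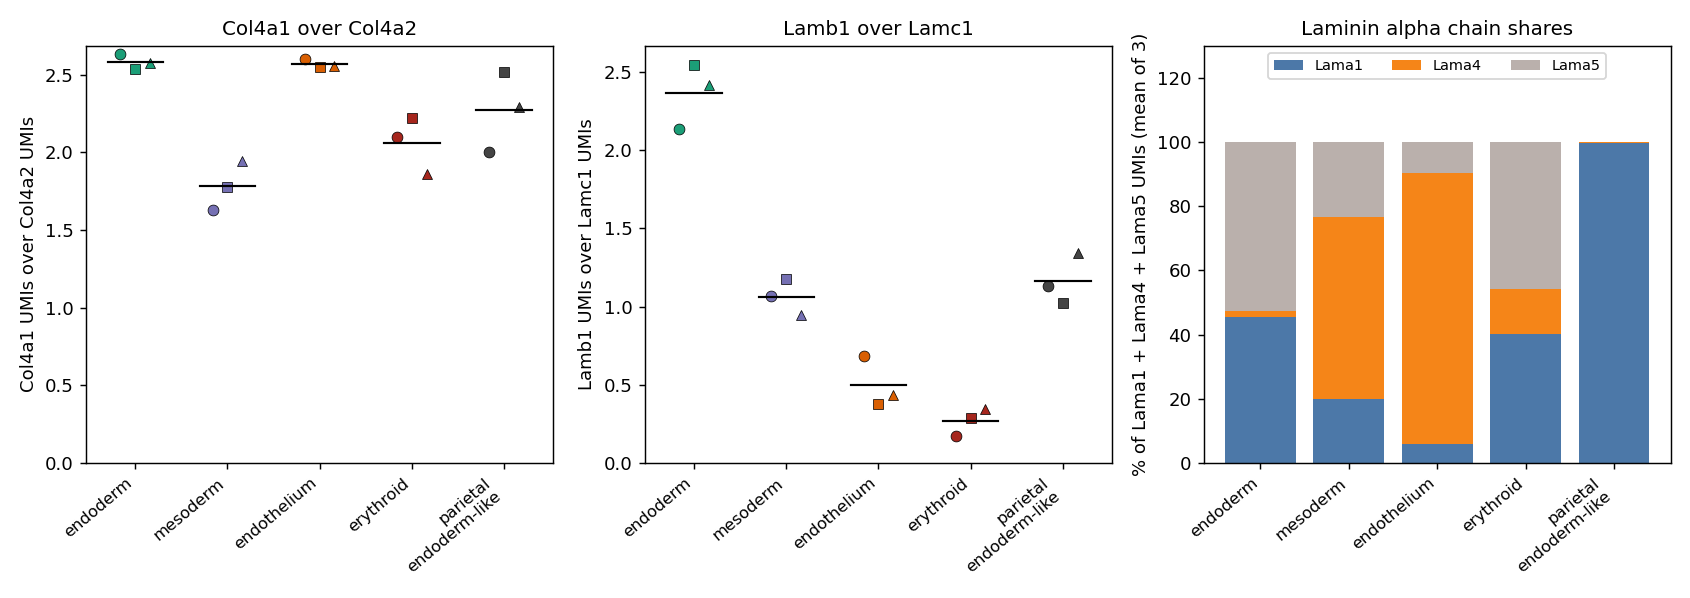
Left and centre: Col4a1 over Col4a2 UMIs and Lamb1 over Lamc1 UMIs by class, 1 point per tagged sample (circle 1, square 2, triangle 3), lines at the mean, axes from 0. Right: mean share of Lama1, Lama4 and Lama5 among their summed UMIs; Lama4 makes up 84.6% in endothelium and 1.9% in endoderm (0.712% to 3.94% by tagged sample), and Lama1, which helped choose the parietal endoderm-like cells, makes up nearly all of theirs.

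In single cells, each thinned at random to 20000 UMIs to remove differences in depth, Col4a1 was found in 99.2% of 509 endoderm cells, 97.6% of 84 endothelial cells and 84.9% of 172 mesoderm cells. Shallower cells were left out, 48, 31 and 25 in those classes. The erythroid share, given for comparison, was 14.8% of 616 cells. The median depths before thinning were 58586, 41651, 36728 and 48034 UMIs in that order, with erythroid cells last. Without thinning the shares were 96.4%, 98.3%, 86.8% and 32.1% in the same order. The median thinned endothelial cell held 8 Col4a1 UMIs and the highest 24, against 5 and 29 in endoderm and 3 and 13 in mesoderm. Col4a2 was found in 84.5% of endoderm, 92.9% of endothelial, 76.7% of mesoderm and 7.95% of erythroid cells. Sparc was found in every thinned endoderm and endothelial cell, in 97.7% of mesoderm cells and in 24.8% of erythroid cells.

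Nid1 was found in 83.3% of thinned endothelial cells (exact 95% interval 73.6 to 90.6%) and 47.1% of mesoderm cells (39.5 to 54.8%). In endoderm it was found in 11.6% (8.94 to 14.7%), against 10.6% (8.24 to 13.3%) of erythroid cells, intervals that overlap. The source of the erythroid counts was not tested, so these shares do not settle whether endoderm cells express Nid1. Without thinning Nid1 was found in 88.7% of endothelial, 58.4% of mesoderm, 25.3% of endoderm and 21.1% of erythroid cells. Hspg2 was found in 78.6% of endothelial, 46.5% of mesoderm, 16.1% of endoderm and 2.27% of erythroid cells. Lama4 was found in 56.4% of mesoderm and 38.1% of endothelial cells, and in 0.786% of endoderm cells, where 0.812% of erythroid cells also held it. Lama1 was found in 27.9% of mesoderm and 23.4% of endoderm cells, and in 5.95% of endothelial cells (1.96 to 13.3%) against 2.6% of erythroid cells (1.49 to 4.18%), intervals that overlap. Lama5 was found in 1 of 84 endothelial cells, 1.19% (0.0301 to 6.46%), against 3.41% of erythroid cells (2.12 to 5.16%), an order that turned at 10000 UMIs (4% against 1.93%) and is not read. It was found in 34.9% of mesoderm and 27.3% of endoderm cells. Lamb1 was found in 70.3% of mesoderm, 60.5% of endoderm, 23.8% of endothelial and 4.22% of erythroid cells, and Lamc1 in 75.6%, 31.0%, 39.3% and 15.1%. These intervals cover counting error only.

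**Figure D4:**
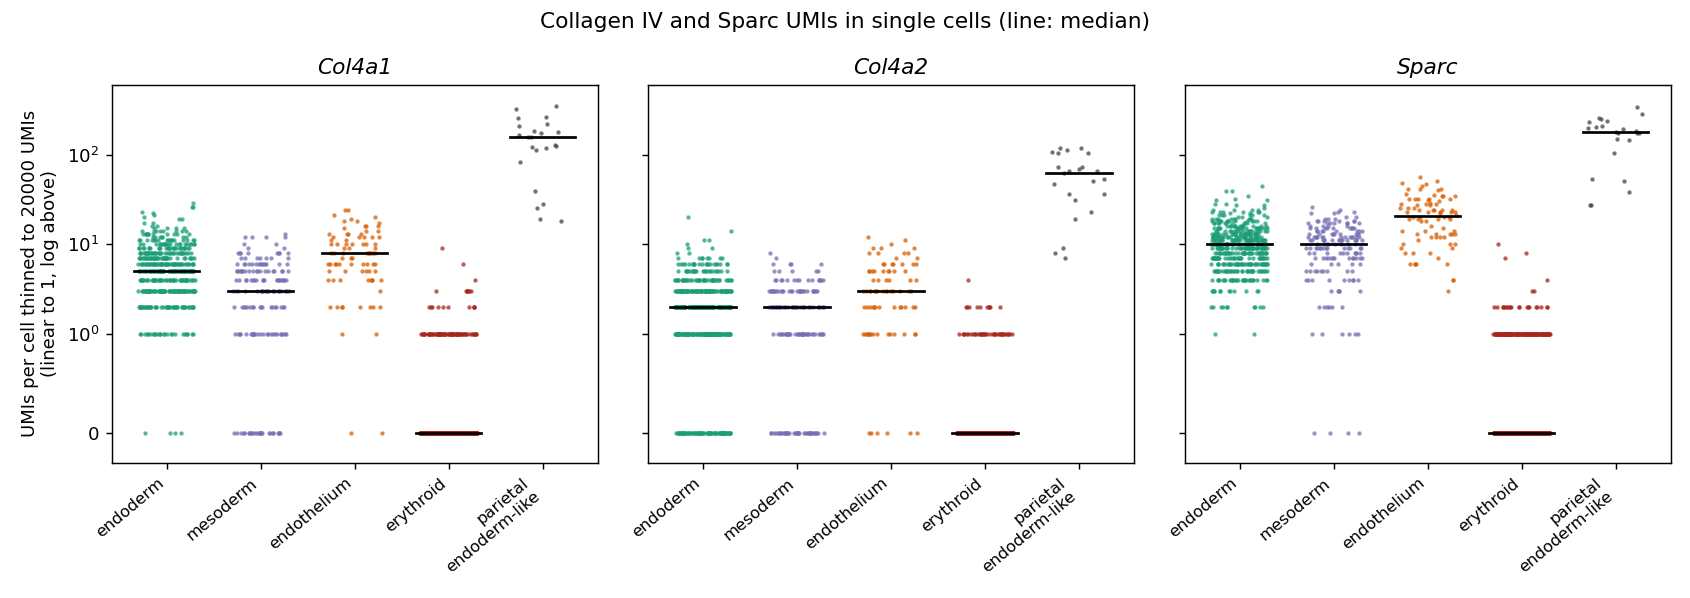
UMIs of Col4a1, Col4a2 and Sparc in each cell thinned to 20000 UMIs (vertical axis linear to 1 and logarithmic above), by class, with the median as a line. Endothelial cells spread from 0 to 24 Col4a1 UMIs around a median of 8, most erythroid cells lie at 0, and the parietal endoderm-like medians lie above every cell of the other classes, although their lowest cells (18 Col4a1, 7 Col4a2 and 27 Sparc UMIs) lie within the range of those classes.

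Within a class, cells high in Col4a1 tended to be high in Col4a2. Spearman's rho between their thinned counts, given as a description since cells share a library, averaged 0.58 over the 3 tagged samples in endothelium (84 cells; 0.56 to 0.61), 0.49 in mesoderm (172 cells; 0.42 to 0.57) and 0.34 in endoderm (509 cells; 0.23 to 0.39). Sparc went with Col4a1 by 0.56 in endothelium, 0.33 in mesoderm and 0.12 in endoderm, and Hspg2 did so by 0.50, 0.04 and 0.14. Lamb1 with Lamc1 averaged 0.39 in mesoderm (0.11 to 0.54), 0.04 in endoderm and -0.11 in endothelium. The weak values in these sparse counts are not read.

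The 25 parietal endoderm-like cells, 3, 19 and 3 by tagged sample, had higher pooled levels of Lama1, Lamb1, Lamc1, Col4a1, Col4a2, Nid1 and Sparc than any of the 4 main classes. Of these cells, 2 also passed the endoderm gate and 2 the mesoderm gate. Fewer than 5 cells came from tagged samples 1 and 3, so there was no test, and values are pooled with exact 95% Poisson intervals that cover counting error only. Their Col4a1 level was 7280 CPM (7104 to 7459), 25.0 times that of endoderm, and their Col4a2 level 2944 CPM, 26.1 times. Sparc was at 8172 CPM, 15.4 times endoderm, Nid1 at 923 CPM against 6.102 CPM in endoderm, Lamb1 at 1457 CPM, 32.1 times, and Lamc1 at 1371 CPM, 72.2 times. Lama1, at 1765 CPM, helped choose the cells, and its level is no result. Hspg2, at 65.9 CPM (50.1 to 85.0), was 7.69 times the endodermal level but 0.634 times the endothelial level.

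Lama5 had 1 UMI in all 25 cells, 1.12 CPM (0.0283 to 6.22), against 16.1 CPM (14.8 to 17.6) in endoderm, and Lama4 had 10 UMIs, 9 of them in the 2 cells that also passed the mesoderm gate. The levels differed between tagged samples: Col4a1 was at 1726, 8281 and 6001 CPM, Sparc at 1556, 9112 and 8033 CPM and Nid1 at 53.3, 1069 and 786 CPM. The level over the cells of tagged sample 1 was the lowest for these genes, and visceral endoderm markers summed to 3719 CPM in them, against 904 and 1531 in the other tagged samples. Cell by cell, Col4a1 ran from 924 through a median of 6952 to 16101 CPM. Low cells were not confined to tagged sample 1. The lowest was in tagged sample 2, and a cell of tagged sample 3 was at 1148 CPM. Visceral endoderm markers summed to 4556 and 5359 CPM in these cells. The 8 markers of parietal endoderm summed to 788, 2097 and 1968 CPM in the parietal endoderm-like cells and to at most 179 in the 4 main classes. Detection alone did not set these cells apart. All 8 were detected in them and in erythroid cells, and 7 in each of endoderm, endothelium and mesoderm. Other markers were present too. Trophoblast markers, 4 of 9 detected, summed to 181, 128 and 227 CPM, and to at most 197 in the 4 main classes. Decidua markers, 3 of 4 detected, summed to 21.3, 451 and 599 CPM, and to at most 273 in the 4 main classes, a value of mesoderm. The one not detected, Prl8a2, was at 0 in every class, and Hand2 is also among the extraembryonic mesoderm markers. No decidual identity is read from this sum. Endothelial markers, 5 of 10 detected, summed to 416, 89.9 and 243 CPM, below endothelium. At the edges of the gate, 2 cells had 10 to 14 UMIs of Fst and Srgn and 1 had 5 to 9 of Lama1, while 7 cells lay just outside. Of those 7, 6 were in endoderm, and Col4a1 in the 7 was between 231 and 1285 CPM.

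**Figure D5:**
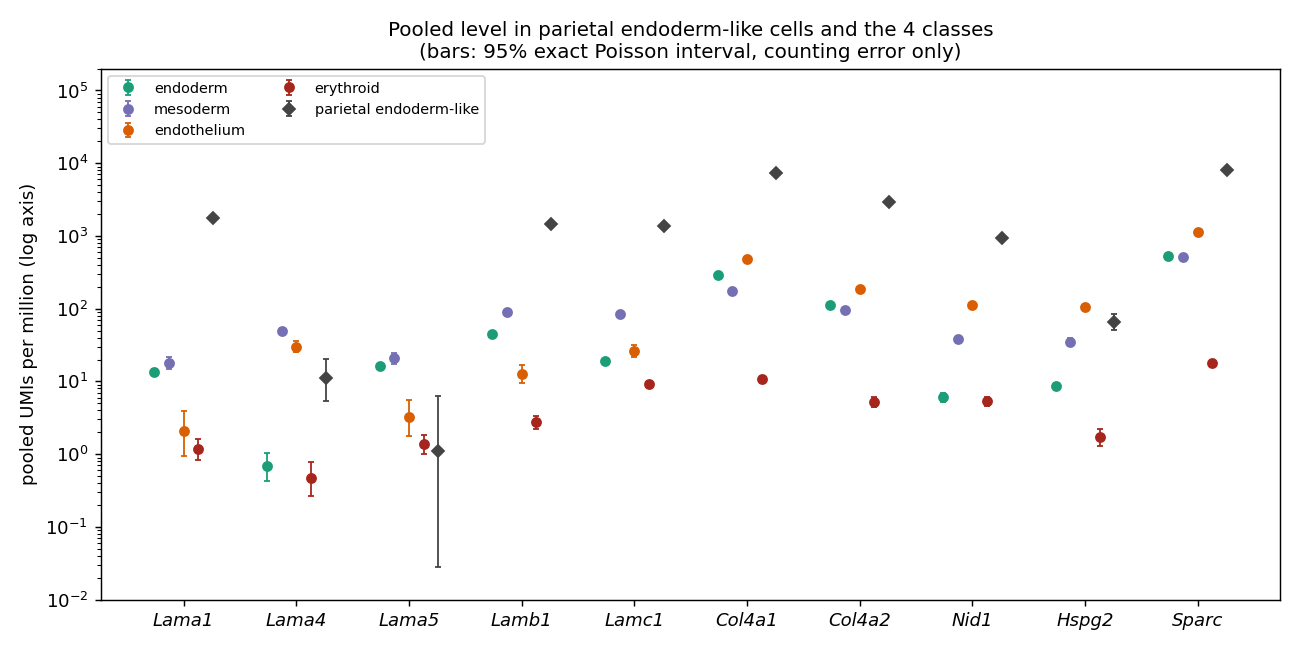
Pooled level of each gene in CPM (log axis) in parietal endoderm-like cells (diamonds) and the 4 main classes (circles), with exact 95% Poisson intervals. The diamonds lie above every circle for Lama1, Lamb1, Lamc1, Col4a1, Col4a2, Nid1 and Sparc, and below the endoderm and mesoderm circles for Lama5.

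Mesoderm was not uniform. In 18 mesoderm cells with over 0.05% of UMIs from contractile genes, Lama4 was at 15.6, 19.8 and 22.7 CPM, and in the other 179 cells at 53.3, 51.0 and 53.5 CPM, without overlap; the first rest on 13 UMIs. In 21 mesoderm cells with at least 5 UMIs of trophoblast markers, Lama4 had 1 UMI and Col4a1 was at 2.10, 85.2 and 22.3 CPM, while Hspg2 was at 31.5, 63.1 and 44.5 CPM, a range that takes in the class as a whole. Trophoblast markers summed to 197, 96.5 and 60.6 CPM in the mesoderm of tagged samples 1, 2 and 3, and Col4a1 was lowest in tagged sample 1 and highest in tagged sample 3; their part in that order was not tested. Leaving cells with at least 5 such UMIs out of every class kept 364 of 557 endoderm and 91 of 115 endothelial cells.

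Of 23 further basement membrane components, 15 could be tested between mesoderm and endoderm, and 7 were higher in mesoderm and 3 lower (median log2 difference 0.20, against -0.02 over all genes), a share of calls near the 63.8% of all genes. The smallest p-values were those of Smoc2, a SPARC-related matricellular protein (6.70 ± 0.31, adjusted p = 8.6e-09), Col4a5, a chain of the minor collagen IV forms (5.29 ± 0.40, adjusted p = 3.71e-07), and agrin, the proteoglycan Agrn (-1.92 ± 0.16, adjusted p = 9.11e-07). Between endothelium and endoderm 11 could be tested, with 2 higher and 7 lower (median -1.84, against -0.05 over all genes), where 28.6% of all genes were higher and 31.9% lower. The leading genes were Col18a1, the source of endostatin (2.78 ± 0.12, adjusted p = 5.78e-10), Agrn (-2.77 ± 0.18, adjusted p = 2.54e-08) and Fbln1, a fibulin (-1.84 ± 0.15, adjusted p = 3.6e-07). Agrn was at 59.5, 57.5 and 53.9 CPM in endoderm and at 10.1, 9.56 and 7.20 CPM in endothelium, the opposite order to perlecan.

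Of 16 receptors for these proteins tested between mesoderm and endoderm, 12 were higher in mesoderm and 2 lower (median 1.40), where 30.7% of all genes were higher and 33.1% lower. Without tagged sample 2 these counts were 10 and 1. The smallest p-values were those of the syndecans Sdc1 (4.70 ± 0.17, adjusted p = 1.32e-09) and Sdc2 (5.28 ± 0.21, adjusted p = 2.47e-09) and of the integrin subunit Itgb5 (4.01 ± 0.22, adjusted p = 2.46e-08), which were higher in mesoderm, while a further syndecan, Sdc4, was lower (-2.33 ± 0.15, adjusted p = 8.54e-08). Of 15 tested between endothelium and endoderm, 9 were higher and 3 lower (median 1.30), against 28.6% and 31.9% of all genes, and 10 and 5 without tagged sample 1. Sdc4 fell there by 4.79 ± 0.18 (adjusted p = 2.05e-10), while Itga6, a laminin-binding integrin subunit (3.50 ± 0.19, adjusted p = 5.15e-09), and Itga1, a collagen-binding subunit (6.29 ± 0.37, adjusted p = 1.07e-08), were higher.

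Genes that fold, crosslink and secrete collagen were higher in mesoderm than in endoderm in 7 of 18 cases and lower in 6 (median 0.13), a share of calls near the 63.8% of all genes, and scaling by library size alone changed those counts to 10 and 2. P3h2, a prolyl hydroxylase (1.87 ± 0.13, adjusted p = 1.69e-07), and Plod2, a lysyl hydroxylase (2.82 ± 0.22, adjusted p = 4.41e-07), were higher in mesoderm, and Tango2, whose product is better known in lipid metabolism than in collagen export, was lower (-2.60 ± 0.21, adjusted p = 6.24e-07). Endothelium was higher than endoderm in 4 of 18 and lower in 6 (median -0.15), near the 60.4% of all genes called, with Serpinh1, the collagen chaperone, at 1.201 ± 0.09 (adjusted p = 1.71e-07), Tango2 at -3.77 ± 0.27 (adjusted p = 7.45e-08) and Crtap, a partner of the prolyl hydroxylases, at -1.69 ± 0.17 (adjusted p = 1.95e-06).

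Of 9 matrix proteases and inhibitors tested between mesoderm and endoderm, 6 were higher in mesoderm and 1 lower (median 3.98), where 30.7% of all genes were higher and 33.1% lower. Timp2, a metalloproteinase inhibitor, led (5.68 ± 0.16, adjusted p = 2.07e-10), with the proteases Adamts9 (6.42 ± 0.27, adjusted p = 3.59e-09) and Mmp2 (5.46 ± 0.31, adjusted p = 3.87e-08). Between endothelium and endoderm 9 of 9 tested were higher in endothelium (median 3.78), where 28.6% of all genes were higher, led by Timp2 (3.93 ± 0.26, adjusted p = 3.8e-08), Timp1 (5.61 ± 0.41, adjusted p = 9.06e-08) and the membrane-bound protease Mmp14 (2.95 ± 0.22, adjusted p = 1.09e-07).

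Between endothelium and mesoderm, where 35.7% of all genes were called, 19.7% higher in endothelium and 16.1% higher in mesoderm, endothelium was higher in 1 and lower in 8 of 12 further components tested (median -1.68), with Smoc2 at -6.35 ± 0.38 (adjusted p = 5.84e-08), Fbln1 at -1.94 ± 0.16 (adjusted p = 1.02e-06) and Col18a1 at 1.61 ± 0.15 (adjusted p = 3.32e-06). It was higher in 3 and lower in 7 of 14 receptors (median -0.84), or 6 and 9 of 16 without tagged sample 1, with Sdc2 at -6.38 ± 0.41 (adjusted p = 1.07e-07), the laminin receptor Bcam at -4.10 ± 0.32 (adjusted p = 5.74e-07) and Itga6 at 2.85 ± 0.25 (adjusted p = 1.54e-06). Of 17 collagen-processing genes 2 were higher and 6 lower (median -0.20), or 0 and 5 without tagged sample 3, with P3h2 at -4.74 ± 0.26 (adjusted p = 2.22e-08), Plod2 at -3.18 ± 0.29 (adjusted p = 2.33e-06) and P4ha2 at -3.84 ± 0.36 (adjusted p = 2.8e-06). Of 9 proteases and inhibitors 5 were higher and 3 lower (median 1.18), with Timp3 at 3.80 ± 0.26 (adjusted p = 2.0e-07), Adamts9 at -2.65 ± 0.24 (adjusted p = 2.46e-06) and Timp2 at -1.76 ± 0.16 (adjusted p = 2.5e-06). Genes of 1 list stood on opposite sides of the same comparison.

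Over the 12 sums of 4 classes in 3 tagged samples, the genes whose profile was most like the mean of Col4a1 and Col4a2 were, among 6822 with at least 20 CPM in some class, Sparc (Pearson r of log2(CPM + 1) 0.995), Rhoc (0.993), Bcar1 (0.991), Capn2 (0.990) and Sptlc2 (0.990). Rhoc, a small GTPase, averaged 166 CPM in endothelium, 115 in endoderm, 84.0 in mesoderm and 3.88 in erythroid cells, and Bcar1, an adaptor of integrin signalling, averaged 31.6, 18.9, 20.7 and 1.79 CPM. Hspg2 ranked 799th with 0.844, Lamb1 1511th with 0.699 and Nid1 1855th with 0.633. The low erythroid sums weigh on all of these values, and the 12 sums are not independent.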

How the data were processed

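Single-cell RNA was measured in 3 tagged samples. The deposited matrices hold raw UMI counts by gene row and cell column. Their headers name Cell Ranger 6.1.2, and the submitters' processing notes name the builds GRCm38 and mm10. The sources used here do not describe how each cell got its tag. The genes, lists and gates were chosen with earlier results of these data known. The text names the 10 genes in every comparison, of each further list the 3 genes with the smallest p-values, and the 5 genes most like Col4a1 and Col4a2. Sdc4, which ranked 4 by p among the receptors between mesoderm and endoderm, is named in addition.

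Raw UMIs were summed per tagged sample and class, since cells are not replicates, and total 1250024 to 16784528 per sum. Each pair of classes was fitted alone with edgeR 4.0.16 on R 4.3.3 (TMM normalization, its default filter on low counts, and a two-sided quasi-likelihood F-test); adjusted p-values are Benjamini-Hochberg values over all genes tested. The method was also run on simulated sums in which few genes changed, all well counted and as many up as down. That run does not show how it performs where as many genes differ as here. DESeq2 1.42.0 was an alternative. Sums with the same number come from the same tagged sample, so the numbers pair them; their deviations from class means correlated across 9654 genes by 0.015 to 0.149, and the replicate block is an alternative. Doublets were called with Scrublet in scanpy 1.11.5 (89 cells, removed in an alternative only). Intervals cover counting error only; a count of 0, taken to allow 3 counts, would allow up to 0.0925 CPM in endoderm and 0.699 CPM in endothelium. Sequences are from RefSeq (GRCm38.p6) and positions from GENCODE M21 (GRCm38). The erythroid gate names 7 globins; adding Hbb-bh2 changed the class of 0 cells.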

Additional observations from a re-analysis of the deposited data

How the results depend on the processing

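Of 57 differences tested for the 10 genes, 53 were called, and of 1054 values under the alternatives 1018 kept their direction and side of the threshold; the other 36 fell in 13 of the 57. With the sums of a comparison thinned to the smallest, fewer genes were called over all: 4306 in place of 7008 for mesoderm minus endoderm, 2580 in place of 6458 for endothelium minus endoderm, 4427 in place of 6870 for mesoderm minus erythroid and 2548 in place of 6113 for endothelium minus erythroid, where fewer counts entered and fewer genes were tested. Endothelial Col4a2 over endoderm then missed the threshold (0.78, adjusted p = 0.113), as did endothelial Lamb1 and Lamc1 over erythroid cells (2.22, adjusted p = 0.0907, and 1.67, adjusted p = 0.243). Leaving out 1 tagged sample gave 5752 to 6987 genes called for mesoderm minus endoderm, 5424 to 6269 for endothelium minus endoderm, 7678 to 8939 for erythroid minus endoderm, 2217 to 3319 for endothelium minus mesoderm, 5938 to 7382 for mesoderm minus erythroid and 5183 to 6298 for endothelium minus erythroid. Values that changed sign, with the cause not tested, were those of Lama1 in mesoderm minus endoderm (-0.045 with the gates halved, -0.27 thinned, and -0.16 to 0.41 with 1 tagged sample left out, lowest without replicate 2), Lama5 there (-0.10 to 0.29, lowest without replicate 3), Col4a2 there (0.10 with parietal endoderm-like cells not set apart) and Nid1 in erythroid minus endoderm (-0.17 scaled by library size, -0.0029 unfiltered, -0.069 with the gates halved, and -0.29 to 0.36 with 1 tagged sample left out, lowest without replicate 2). Scaling by library size moved the median over all genes by over 0.1, to 0.22 for mesoderm minus endoderm, 0.08 for endothelium minus endoderm, -0.27 for erythroid minus endoderm, -0.13 for endothelium minus mesoderm, 0.45 for mesoderm minus erythroid and 0.28 for endothelium minus erythroid. It moved the share of calls that were higher from 48.1 to 62.5%, 55.0 to 41.8%, 52.9 to 76.0% and 51.7 to 69.6% for mesoderm minus endoderm, endothelium minus mesoderm, mesoderm minus erythroid and endothelium minus erythroid. With the tagged sample as a replicate block, 6972 genes were called for mesoderm minus endoderm, and none of the 57 calls for the 10 genes changed. For the 3 genes with the smallest p-values of each further list and comparison, 72 differences kept their direction and side in all 1332 values. These include the comparisons with erythroid cells, whose list genes are not named here. They were picked by their p-values in the main fit, so this says nothing of the rest of the lists. Among the comparisons without erythroid cells, thinning moved 7 list counts by over 1.5 times: between mesoderm and endoderm to 9 higher and 1 lower of 14 receptors and 7 and 3 of 17 collagen-processing genes, between endothelium and endoderm to 2 and 3 of 6 components, 4 and 1 of 10 receptors and 2 and 3 of 15 collagen-processing genes, and between endothelium and mesoderm to 1 and 4 of 8 components, with 1 and 4 of 16 collagen-processing genes. Depth limits Lama1 and Lama5 in endothelium (9 and 14 UMIs) and Lama4 in endoderm (22 UMIs).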

Other observations

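The 2 parietal endoderm-like cells of tagged sample 2 that also passed the mesoderm gate held 1.61% of the UMIs of mesoderm and themselves together. They held 50.2% of the Lama1 UMIs of that pool, 43.6% of Col4a1, 35.3% of Col4a2, 26.6% of Nid1, 18.5% of Lamc1, 18.3% of Lamb1 and 17.4% of Sparc, but 2.75% of Hspg2, 2.53% of Lama4 and none of the 146 Lama5 UMIs. Their summed markers of extraembryonic mesoderm were 1038 and 1112 CPM, against at most 487 in the other 23 parietal endoderm-like cells.

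In the 167 cells of no class, Lamc1 was at 21.2, 17.9 and 14.02 CPM, while Col4a1 was at 47.0, 58.5 and 25.2 CPM and Sparc at 62.5, 135 and 31.3 CPM, between erythroid cells and the other 3 classes. Trophoblast markers summed to 562, 557 and 147 CPM in these cells, and erythroid markers to 361, 312 and 501 CPM.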
